A study of Mus musculus with 12 samples.

Results

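The nuclear genome encodes most subunits of the mitochondrial respiratory chain, and 52 such subunits of complexes I, III and IV were followed here in mouse kidney cortex. They were taken as a list of names: 33 subunits of complex I, 9 of complex III and 10 of complex IV. All 52 were found among the 47719 genes of the deposited table, and all 52 passed the expression filter, which left 14109 genes for testing.

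Complex I takes electrons from NADH, complex III passes them from ubiquinol to cytochrome c, and complex IV hands them to oxygen. All 3 complexes pump protons across the inner mitochondrial membrane, and ATP synthase uses the resulting gradient. The kidney cortex is rich in mitochondria because proximal tubule cells reabsorb most of the filtered solutes by active transport. The subunits are encoded in both genomes, and the mitochondrial ones are not part of the list: 37 mitochondrially encoded genes were present in the table and 37 were listed at 0 in every library.

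RNA was sequenced from cortex of male C57BL6/J mice aged 8 weeks, in 4 groups of 3 libraries. The source is labelled whole kidney, whereas cortex is the labelled region and the tissue of the extraction protocol. PF mice were pair-fed a maltose-dextrin liquid diet for 6 weeks and injected with saline, and PF4hLPS mice had the same diet and received 10 mg/kg lipopolysaccharide (LPS, a bacterial outer membrane component) into the peritoneum, 4 hours before tissue collection. EtOH mice drank a Lieber-DeCarli liquid diet for 6 weeks, with its ethanol content stepped up to 6%, and were injected with saline. EtOH4hLPS mice had the same ethanol diet and the same LPS dose. The labels number the replicates without stating that each is a separate mouse, and the tests therefore rest on library-to-library spread, which may be technical.

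Values are FPKM, fragments per kilobase of transcript after scaling between libraries, as the authors deposited them. Median-ratio size factors of these values ran from 0.9765 (EtOH library 2) to 1.027 (EtOH4hLPS library 1), so the libraries were already near level on that measure. Fragment totals are not used here because the table holds none. The steps between low values gave a factor for each library, called relative depth here, of 0.491 to 1.199 against PF library 1. It reflects the scaling of the deposited values and need not equal sequencing depth. The 6 LPS libraries (0.491 to 0.762) lay mostly below the 6 saline libraries (0.720 to 1.199). The 10 markers of proximal tubule summed to 4887 to 5550 FPKM in PF, 4087 to 5027 FPKM in PF4hLPS, 4891 to 5259 FPKM in EtOH and 4770 to 6379 FPKM in EtOH4hLPS, with none at 0, and muscle markers to below 1 FPKM in each library. All 10 had a log2 fold change below 0 in PF4hLPS against PF (median -0.31, 1 called lower, limma) and all 10 one above 0 in EtOH4hLPS against PF4hLPS (median 0.37, 0 called). In EtOH4hLPS against EtOH 6 of 10 were above 0 (median 0.04). The 5 neutrophil markers summed to 3.35 to 5.59 FPKM in saline libraries and 166.7 to 418.7 FPKM in LPS libraries, with none at 0. The 7 endothelial markers summed to 95.3 to 125.3 FPKM in saline libraries and 42.9 to 64.6 FPKM in LPS libraries. They did not all move alike: 2 of 7 had a log2 fold change above 0 after LPS in each diet. In pair-fed mice 1 was called higher and 5 lower, and in ethanol-fed mice 1 higher and 4 lower (limma). The part of these cell markers in the results below was not tested. In such bulk tissue, fewer cells of a type and less RNA per cell cannot be told apart.

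The subunits were among the most abundant transcripts of the cortex. Their mean over the 12 libraries had a median of 213.6 FPKM, against 8.74 FPKM for all tested protein-coding genes, and 44 of the 52 lay among the 1000 highest of 21695 protein-coding genes. The means ran from 20.0 FPKM for Ndufb7 to 1671 FPKM for Cox6b1. Subunits of one complex occur in fixed proportions in the assembled enzyme, yet their transcripts spanned a wide range within each complex.

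In complex I, the highest means were those of Ndufb8 (705.3 FPKM), a distal membrane arm subunit, Ndufa5 (662.2 FPKM), which lies in the ubiquinone-reducing Q module, and Ndufa10 (618.1 FPKM), a matrix-side subunit of the membrane arm. Ndufb7, an intermembrane-space subunit of the same distal arm, was the lowest. The core subunit Ndufs1, which carries iron-sulphur clusters in the NADH-oxidising N module, had the smallest variation of all members, with a coefficient of variation of 8.99% over the 12 libraries. In complex III, Uqcrh, the hinge protein at the cytochrome c1 contact, had a mean of 807.6 FPKM. Uqcrb (718.2 FPKM) and the core protein Uqcrc2 (453.0 FPKM) followed, and Cyc1, which encodes cytochrome c1 itself, was the lowest at 82.5 FPKM. In complex IV, Cox6b1 (1671 FPKM), Cox6c (1578 FPKM) and Cox7b (935.6 FPKM) led and Cox7c was the lowest at 151.2 FPKM. Cox6b1 and Cox6c, the first and second in level, did not keep the same order in every library. Cox6c was above Cox6b1 in PF4hLPS library 2 (2707 against 1646 FPKM), EtOH library 2 and EtOH4hLPS library 1, and below it in the rest. Over the 12 libraries Cox6b1 ranged from 1077 to 3857 FPKM and Cox6c from 920.7 to 3451 FPKM.

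The members also shared structural features. Their transcripts were short, with a median of 718 bases against 2658 for tested protein-coding genes, and had a median GC content of 52% (range 42.0 to 60.4%) against 50%. The genes lie on 18 chromosomes. Cox6c, for example, occupies chromosome 15 from 35925886 to 35938246 on the minus strand, and Cox6b1 chromosome 7 from 30616861 to 30626151 on the minus strand (GRCm38). Near-identical annotated copies, at 95% identity over 50% of the transcript or more, were found for 3 members (Ndufb11, Ndufs3 and Uqcrb). They were 5 pseudogenes, and in no case summed to over 10% of the member's FPKM. Exons of another gene overlapped 17 members, and without a stated strand setting the reads of such pairs cannot be told apart. The levels of Ndufs1 and Cox6c carry this limit: Ndufs1 overlaps Eef1b2, whose mean was 229.0 FPKM, and Cox6c overlaps Vps13b, at 15.8 FPKM. It also holds for Ndufa2, Ndufa3, Ndufa9, Ndufa13, Ndufb2, Ndufb5, Ndufb6, Ndufb8, Ndufb11, Ndufs3, Ndufs6, Uqcrb, Uqcrc2, Cox4i1 and Cox5a.

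Nuclear respiratory factor 1 (NRF1) and YY1 are transcription factors known to act at promoters of respiratory chain genes. RefSeq promoters of GRCm38.p6, from 250 bases before to 50 after the start, were at hand for 43 members and 27025 genes in all. The 27025 genes were not chosen to match the members in expression level. The letters GCGCATGCG (NRF1), on either strand, were in 4 of the 43 (9.3%) against 1.95% of all promoters. The letters AAGATGGCG (YY1) were in 5 (11.6%) against 1.64%. CCGGAAGTG, a motif of GABPA, was in 2 (4.65%, against 2.25%), GGGGCGGGG, a motif of SP1, in 5 (11.6%, against 12.9%), and TCAAGGTCA, a motif of ERRA, in 0 (0.466% of all promoters). A promoter with overlapping matches on both strands, such as that of Cox6a1 for NRF1, was counted once. The NRF1 and YY1 matches are shown because they are the motifs whose share differed most from that of all promoters. Each window is written on the gene's strand, with the matched letters in capitals. Positions are GRCm38.p6.
Ndufa8, chr2:36049333-36049353, minus strand: tggagaCGCATGCGCagatgg
Cox6a1, chr5:115349106-115349126, minus strand: aacgggGCGCATGCGcgctct
Uqcrc1, chr9:108936672-108936692, plus strand: cgctctGCGCATGCGcagcgc
Uqcr11, chr10:80406812-80406832, minus strand: ccttcaCGCATGCGCtatacg
Ndufc1, chr3:51408919-51408939, minus strand: cggaacAAGATGGCGccgtcc
Ndufa9, chr6:126849101-126849121, minus strand: tgggagAAGATGGCGgccgcc
Ndufs7, chr10:80249467-80249487, plus strand: gaggccAAGATGGCGgcgctg
Ndufs6, chr13:73328435-73328455, minus strand: accggcAAGATGGCGgcggtg
Ndufs4, chr13:114388045-114388065, minus strand: tacaggAAGATGGCGgcggtc
All 5 YY1 matches lay after the transcription start, between 22 and 35 bases into the transcript. The YY1 letters include ATG, the usual start codon, so a match there can also belong to coding sequence. A match describes letters in a window and shows neither binding nor a role in the values below.

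The members varied less between the groups than between the libraries of the PF4hLPS group. Their summed FPKM made up 3.49% ± 0.25 of all protein-coding FPKM in PF, 3.71% ± 1.12 in PF4hLPS, 3.53% ± 0.07 in EtOH and 3.33% ± 0.33 in EtOH4hLPS (mean ± SD, n = 3 libraries each). The PF4hLPS values were 3.22%, 2.91% and 4.99% in libraries 1, 2 and 3, so that 1 group held both the lowest and the highest of the 12 libraries. The spread was widest in PF4hLPS for each complex: complex I took 1.57% ± 0.48 in PF4hLPS against 1.497% ± 0.074 in PF, complex III 0.60% ± 0.18 against 0.63% ± 0.06, and complex IV 1.54% ± 0.47 against 1.36% ± 0.12.

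**Figure D1:**
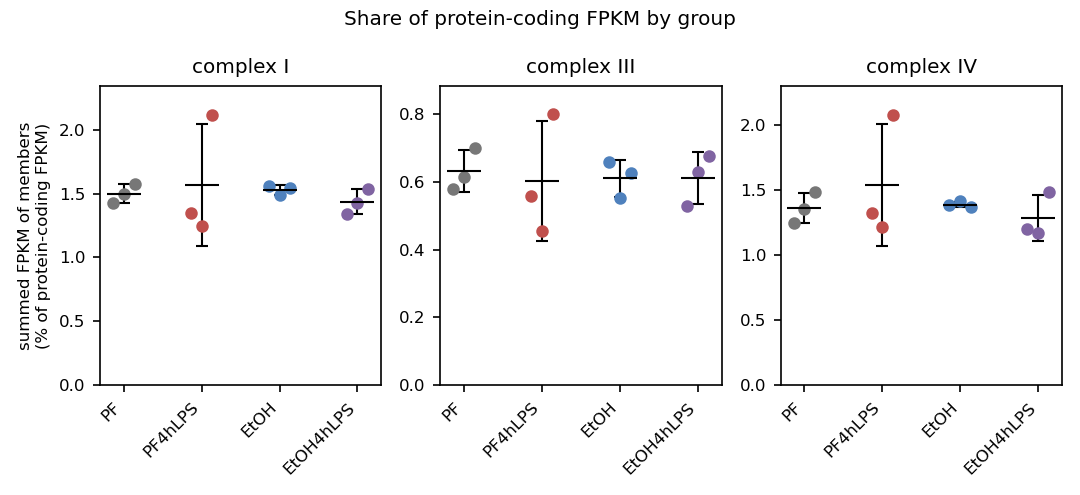
Summed FPKM of the members of each complex as a percentage of protein-coding FPKM (y axis) in the 4 groups (x axis). Points are libraries 1 to 3 from left to right, bars the mean ± SD of 3 libraries. PF4hLPS library 3 is the highest point in all 3 panels and PF4hLPS library 2 is low in each.

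PF4hLPS library 3 had the highest level of 39 of the 52 members, and all 52 stood above their own mean of the 12 libraries there, by a median of 0.79 on the log2(FPKM + 1) scale. Ndufb8 is an example: it was at 2014 FPKM in that library and between 434.3 and 839.9 FPKM in the other 11. PF4hLPS library 2 had the lowest level of 23 members, with a median deviation of -0.43, and it also had the lowest relative depth, 0.49. The next clearest library was EtOH4hLPS library 3, where 49 of 52 members stood above their mean, by a median of 0.29.

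**Figure D2:**
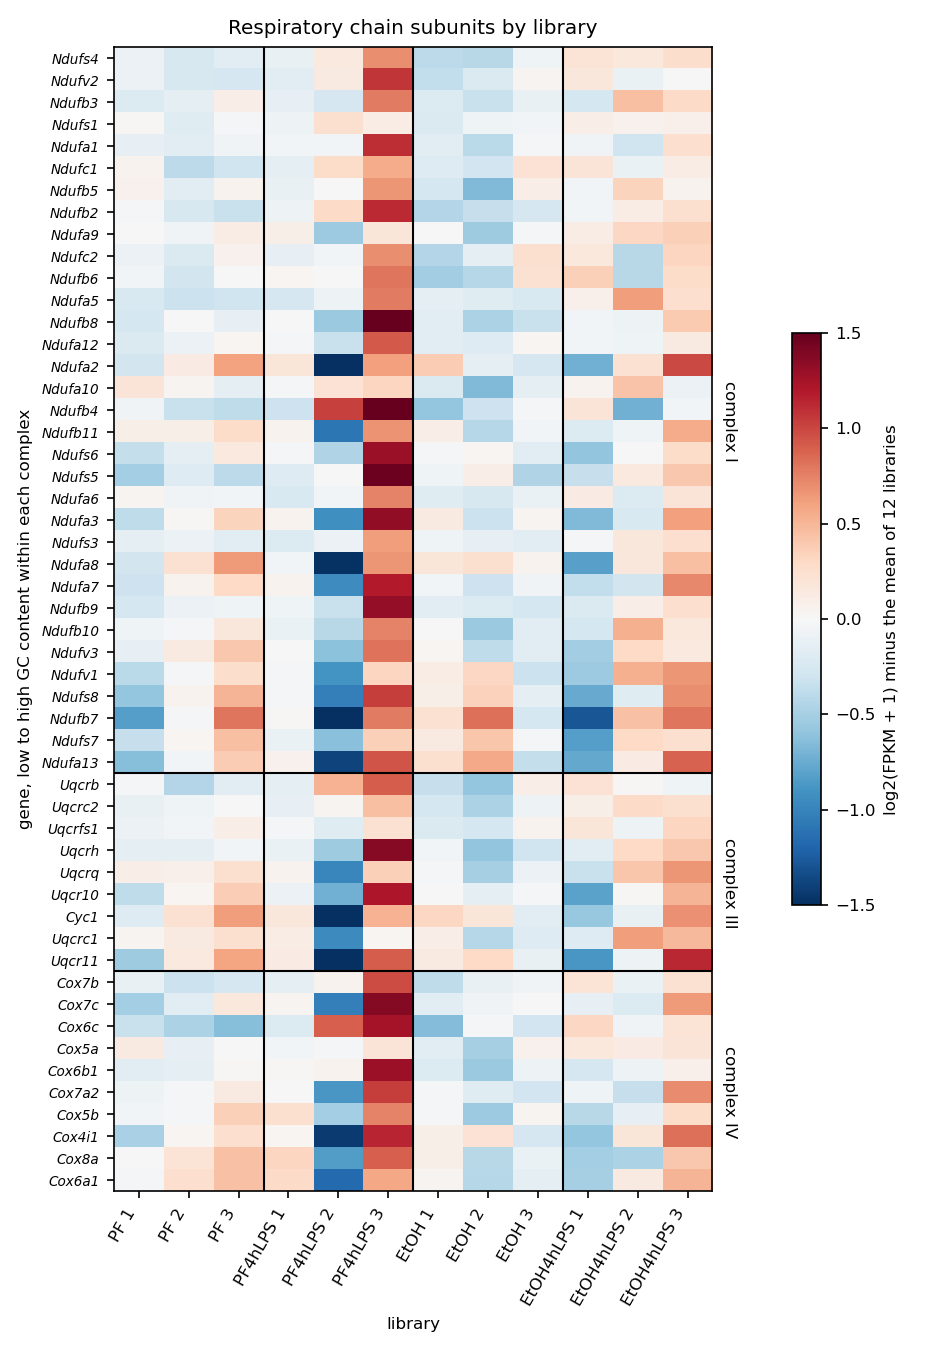
Deviation of each of the 52 members (rows, by complex and GC content) from its own mean of the 12 libraries (columns), in log2(FPKM + 1); the colour scale ends at 1.5 in both directions. PF4hLPS library 3 is red in all rows, and the blue cells of PF4hLPS library 2 lie mostly among the genes of high GC content.

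GC content moved with the low values of PF4hLPS library 2 and not with the high values of PF4hLPS library 3. In library 2, the deviation of the members changed by -0.87 log2 units for each 10 percentage points of GC, and that of all genes by -0.62. The 26 members of lower GC had a median deviation of -0.03 there and the 26 of higher GC one of -0.87. In library 3 the slope was 0.005 over the members and 0.03 over all genes, and the medians were 0.79 and 0.80 in the members of lower and higher GC. After the trend against GC content had been removed from each library, the median deviation was -0.24 in library 2 and 0.78 in library 3. EtOH4hLPS library 1 had the next steepest slopes, -0.60 over the members and -0.31 over all genes. Against transcript length, PF4hLPS library 3 had the steepest slope of the 12 libraries, -0.078 over all genes for each log2 unit of length. The part of length in its high values was not tested.

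The shift of library 3 was not limited to the respiratory chain. The 57 cytosolic ribosomal protein genes deviated there by a median of 1.06, and in library 2 by -0.73. They took 2.93% ± 1.32 of protein-coding FPKM in PF4hLPS and 2.88% ± 0.37 in PF.

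**Figure D3:**
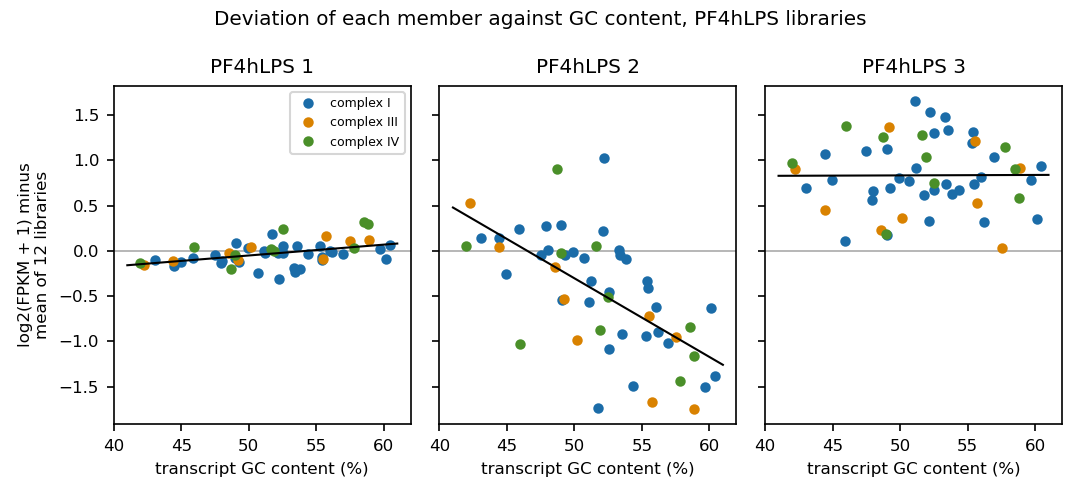
Deviation of each member from its mean of the 12 libraries (y axis, log2(FPKM + 1)) against transcript GC content (x axis, %) in the 3 PF4hLPS libraries, with the least-squares line over the 52 members. The points of library 1 lie near 0, those of library 2 fall with GC content by 0.87 for each 10 percentage points, and those of library 3 lie above 0 at every GC content.

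The genes most like the most abundant member of each complex were ranked by Pearson correlation of log2 values over the 12 libraries. Ndufb8 was closest to Eif3h, a subunit of translation initiation factor 3 (r = 0.99), then to the complex I subunit Ndufb9 and the ribosomal protein gene Rpl27a (both r = 0.97). Uqcrh was closest to the ribosomal protein gene Rpl36a (r = 0.98), then to Gabarapl2 and the elongation factor gene Eef1a1 (r = 0.97 and 0.96). Cox6b1 was closest to the ribosomal protein gene Rps25 (r = 0.97), Txndc17 and Srp14 (r = 0.96 each). These are descriptions over libraries that share the high values of PF4hLPS library 3.

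LPS in pair-fed mice left nearly all of these transcripts without a call. In PF4hLPS against PF, 1 member rose (Cox6c) and none fell at an adjusted p below 0.05 (limma, Benjamini-Hochberg over all genes tested), whereas 18.2% of all genes tested passed in one direction or the other. At an unadjusted p below 0.05 there were 4 members, where 31.2% of all genes were below it. The median log2 fold change of the members was 0.16, with 35 of 52 above 0, against -0.01 for all genes. This median was -0.14 without PF4hLPS library 3 and 0.43 without PF4hLPS library 2. By complex the medians were 0.20 (I), 0.01 (III) and 0.05 (IV). The standard error of a member's fold change ran from 0.16 to 0.70 with a median of 0.34, so changes of that size could not be resolved for most members.

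Cox6c, a small nuclear subunit of cytochrome c oxidase, was at 1151, 1039 and 929.2 FPKM in PF libraries 1 to 3 and at 1259, 2707 and 3451 FPKM in the PF4hLPS libraries. The groups did not overlap, but PF4hLPS library 1 was close to the PF range. The log2 fold change was 1.13 ± 0.34 (SE; adjusted p = 0.0364, limma). The call depended on single libraries and on the scaling. Without PF4hLPS library 3 the fold change was 0.83 (adjusted p = 0.107, limma), and without library 2 it was 1.01 (adjusted p = 0.0981, limma). With both left out it was 0.28 (adjusted p = 0.701, limma). The adjusted p also missed the threshold without PF library 1, 2 or 3 (0.0632, 0.101 and 0.121) and without EtOH library 3 (0.0526), where the fold change stayed at 1.06 to 1.21. It was 0.63 with every library at the same total FPKM (adjusted p = 0.0827, limma), 0.78 with the same protein-coding total (0.0657) and 0.62 under quantile normalization (0.134), and without the expression filter the adjusted p was 0.0965.

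Ndufb4, a distal membrane arm subunit of complex I, had the next highest fold change. It was at 423.3, 347.8 and 337.4 FPKM in PF and at 351.9, 892.0 and 1272 FPKM in PF4hLPS, a log2 fold change of 1.00 ± 0.41 (adjusted p = 0.115, limma). The groups overlapped through PF4hLPS library 1, and with that library alone in its group the value was -0.06. Leaving out PF4hLPS library 1 instead gave 1.53 and brought 4 members past the threshold: Cox6c, Ndufb4, Ndufb2 and Uqcrb. Of all 14109 genes tested, 2695 passed in that fit.

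Ndufs5, a subunit of the proximal membrane arm, was at 113.3, 140.9 and 122.9 FPKM in PF and at 141.1, 162.1 and 450.0 FPKM in PF4hLPS (log2 fold change 0.79, adjusted p = 0.177, limma). The groups did not overlap, although the gap between the highest PF and the lowest PF4hLPS library was small. At the other end were Cyc1 (-0.55), Ndufa8 (-0.48) and Ndufa2 (-0.46), none of them past the threshold. Cyc1 was at 66.5, 89.8 and 118.7 FPKM in PF and at 85.8, 23.3 and 110.3 FPKM in PF4hLPS. The low value is that of library 2, and without it the fold changes were 0.12 for Cyc1, 0.12 for Ndufa8 and 0.25 for Ndufa2.

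In all, 3 of the 52 members (Cox6c, Ndufs5 and Ndufa1) were higher in every PF4hLPS library than in every PF library, where 18.5% of all genes were. None was lower in every library, where 15.7% of all genes were. Within complex I the medians were 0.16 in the N module (9 genes), 0.09 in the Q module (6), 0.21 in the proximal membrane arm (8) and 0.30 in the distal membrane arm (10), and no member of any of them was called.

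**Figure D4:**
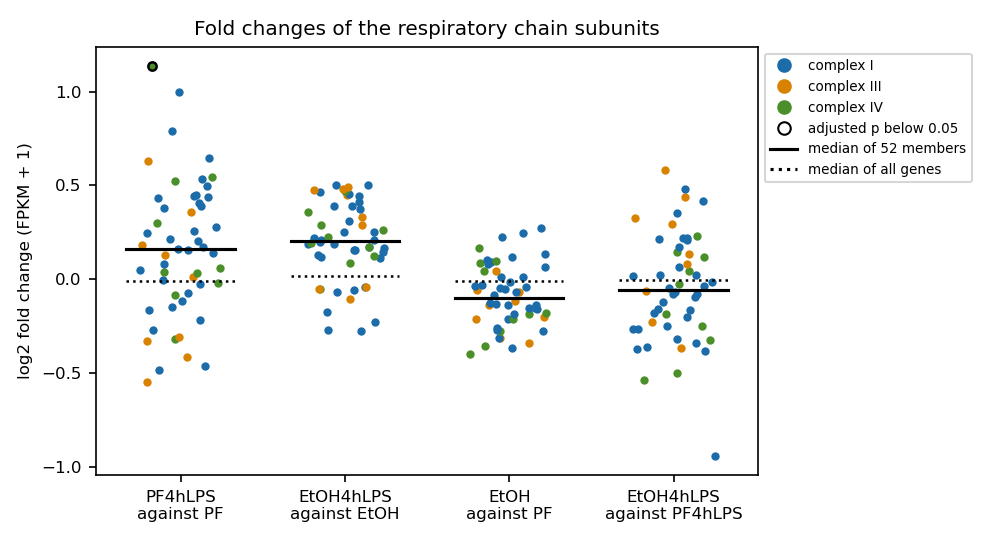
log2 fold change of FPKM + 1 (y axis) of each of the 52 members (points, coloured by complex) in 4 comparisons (x axis), with the median of the members (solid line) and of all genes tested (dotted line); a black rim marks an adjusted p below 0.05. The medians are 0.16, 0.20, -0.10 and -0.06 from left to right, and 1 point, Cox6c in PF4hLPS against PF, has a rim.

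LPS in ethanol-fed mice gave a similar median and no call. In EtOH4hLPS against EtOH, 0 of 52 members passed the threshold in either direction (limma), where 17.1% of all genes did, and 2 members had an unadjusted p below 0.05, where 28.3% of all genes did. The median log2 fold change was 0.20, with 41 of 52 above 0, against 0.02 for all genes. The medians by complex were 0.19 (I), 0.33 (III) and 0.21 (IV).

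The highest values were those of Ndufa5 (0.50), Ndufs4 (0.50) and Uqcrh (0.49). Ndufs4, an accessory subunit of the N module, was at 59.8, 58.7 and 74.8 FPKM in EtOH and at 90.9, 87.9 and 94.4 FPKM in EtOH4hLPS. All LPS libraries lay above all saline libraries, with an adjusted p of 0.125 (limma). Uqcrc2 behaved in the same way: it was at 372.6, 321.6 and 422.5 FPKM in EtOH and at 474.0, 547.0 and 527.8 FPKM in EtOH4hLPS (log2 fold change 0.48, adjusted p = 0.131, limma). The lowest values were those of Ndufs7 (-0.28), Ndufb7 (-0.27) and Ndufa8 (-0.22), and the groups overlapped for all 3.

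In the ethanol-fed mice 10 of 52 members were higher in every LPS library than in every saline library, where 18.8% of all genes were. They were Ndufs1, Ndufs3, Ndufs4, Ndufa5, Ndufa9, Ndufa10, Ndufb2 and Ndufb8 of complex I, Uqcrc2 of complex III and Cox5a of complex IV. None was lower in every library, where 14.8% of all genes were. No member separated the groups in both diets. Cox6c, the 1 member called in pair-fed mice, was at 920.7, 1436 and 1185 FPKM in EtOH and at 1791, 1395 and 1668 FPKM in EtOH4hLPS (log2 fold change 0.47, adjusted p = 0.409, limma). The interaction of diet and LPS called 0 of 52 members, against 0.0284% of all genes, and for Cox6c it was -0.66 (adjusted p = 0.988, limma). Uqcrc1 had the highest interaction value, 0.90, and Ndufb4 the lowest, -0.89, both with an adjusted p of 0.988 (limma).

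The medians of the members after LPS depended on GC content and on how the libraries were scaled. In pair-fed mice the median fold change was 0.33 over the 26 members of lower GC and -0.01 over the 26 of higher GC, and in ethanol-fed mice 0.32 and 0.12. After the GC trend of each library was removed, the values were 0.26 and 0.23 with pair-feeding and 0.26 and 0.15 with ethanol. Over the 52 members, Spearman's rho between fold change and GC content was -0.60 with pair-feeding and -0.57 with ethanol as deposited, and -0.17 and -0.32 after the correction; over all genes as deposited it was -0.31 and -0.11. With the GC trend removed, the call of Cox6c stood (1.10, adjusted p = 0.0329, limma), and Uqcrc1, a core protein of complex III, passed in ethanol-fed mice (0.59, adjusted p = 0.0455, limma).

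Relative depth and total FPKM moved with LPS as well. Summed FPKM of all genes was 1005219 to 1352739 in the saline libraries and 1278219 to 1935824 in the LPS libraries. Every library was then given the same total in place of the deposited scaling. The median of all genes moved to -0.40 with pair-feeding and -0.26 with ethanol, and that of the members to -0.34 and -0.13. The members thus lay 0.07 and 0.13 above all genes on that scale, against 0.17 and 0.19 as deposited. Under quantile normalization they lay 0.13 and 0.11 below all genes, so the direction of the members relative to all genes was not the same under every scaling. With relative depth as a covariate, the members' median was 0.94 with pair-feeding and 0.50 with ethanol and Cox6c was no longer called (0.37, adjusted p = 0.719, limma). The 4 libraries of lowest relative depth were all LPS libraries, and the parts of this factor and of LPS cannot be told apart.

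No respiratory chain transcript passed the test for chronic ethanol feeding. In EtOH against PF, 0 of 52 members passed the threshold (limma), where 0.0284% of all genes did, and 0 members had an unadjusted p below 0.05, where 3.69% of all genes did. The median log2 fold change was -0.10, with 16 of 52 above 0, against -0.01 for all genes. Its direction was not kept under every scaling: it was 0.000899 at equal total FPKM, 0.0152 at equal protein-coding FPKM, 0.000838 under quantile normalization and 0.175 with relative depth as a covariate. The lowest values were those of Cox6a1 (-0.40), Ndufa10 (-0.37) and Cox8a (-0.35). Ndufa10 was at 695.7, 626.2 and 550.8 FPKM in PF and at 523.9, 384.9 and 552.9 FPKM in EtOH, so that 1 EtOH library lay within the PF range. The highest were Ndufb7 (0.28), Ndufa13 (0.25) and Ndufs5 (0.22).

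Uqcrq and Ndufa6, 2 of 52 members, separated EtOH from PF without overlap, both with lower values in EtOH, where 12.6% of all genes separated in one direction or the other. Uqcrq, a small subunit of complex III that binds ubiquinone, was at 207.5, 203.0 and 228.6 FPKM in PF and at 191.1, 136.9 and 182.2 FPKM in EtOH, and its adjusted p was 1.0 (limma).

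Among LPS-treated mice the diets did not separate the members. In EtOH4hLPS against PF4hLPS, 0 of 52 members were called (limma), where 0.0992% of all genes were, and 0 separated without overlap, where 10.9% of all genes did. At an unadjusted p below 0.05, where 10.8% of all genes were, there was 1 member, Ndufb4, at 499.7, 265.3 and 426.5 FPKM in EtOH4hLPS (log2 fold change -0.94, adjusted p = 0.442, limma). Its range overlapped that of the PF4hLPS libraries given above. The next lowest were Cox6b1 (-0.53) and Cox6c (-0.50), and the highest were Uqcrc1 (0.58), Ndufa2 (0.48) and Uqcrq (0.44). The median of the members was -0.06 and went from -0.38 without PF4hLPS library 2 to 0.27 without PF4hLPS library 3, and it was 0.21 at equal total FPKM. Averaged over both LPS states, ethanol against pair-feeding called 0 of 52 members, where 0.319% of all genes were called, with a median of -0.07, and 0.11 at equal total FPKM. In that comparison Ndufb4 (-0.49), Cox6b1 (-0.36) and Cox8a (-0.34) were lowest and Ndufv1 (0.25), Ndufb7 (0.25) and Ndufa13 (0.23) highest.

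Several genes around the respiratory chain passed the test after LPS. AA467197, which encodes a paralog of the complex IV subunit Ndufa4, was at 0.25, 0.25 and 0.06 FPKM in PF and at 17.0, 18.4 and 38.7 FPKM in PF4hLPS. In ethanol-fed mice it was at 0.13, 0 and 0.39 FPKM with saline and at 13.9, 24.9 and 30.2 FPKM with LPS. It was low in all saline libraries and high in all LPS libraries, with log2 fold changes of 4.35 ± 0.32 (adjusted p = 1.75e-06, limma) in pair-fed and 4.30 ± 0.32 (adjusted p = 1.87e-06, limma) in ethanol-fed mice. It passed the threshold under all 27 alternatives in both diets.

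Ndufa4 itself was far more abundant, at 1673 FPKM ± 195 in PF, 2291 ± 741 in PF4hLPS, 1486 ± 225 in EtOH and 1948 ± 475 in EtOH4hLPS (SD, n = 3). Its log2 fold changes were 0.41 and 0.37 with adjusted p of 0.338 and 0.434 (limma). AA467197 was the 1 gene called among the 7 tested isoforms and paralogs of subunits. The hypoxia-linked isoforms Ndufa4l2 and Cox4i2 were below the expression filter.

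Among regulators of mitochondrial biogenesis, 21 of 22 were tested, and after LPS 3 passed as higher and 4 as lower with pair-feeding, with 3 and 3 under ethanol. Of all 14109 genes tested, 1589 were called higher and 972 lower with pair-feeding (18.2% in all), and 1504 and 902 under ethanol (17.1%). Ppargc1a, the coactivator PGC-1alpha that drives expression of respiratory chain genes, was at 22.3, 20.2 and 19.7 FPKM in PF and at 6.58, 10.0 and 4.77 FPKM in PF4hLPS. In ethanol-fed mice it was at 24.4, 23.3 and 25.5 FPKM with saline and at 18.0, 5.67 and 5.38 FPKM with LPS. All LPS libraries lay below all saline libraries, although EtOH4hLPS library 1 was closer to the saline values than the others. Ppargc1a fell by 1.47 (adjusted p = 0.0152, limma) and by 1.45 (adjusted p = 0.0168, limma) on the log2 scale. Its adjusted p missed the threshold in pair-fed mice without PF4hLPS library 3 (-1.25, 0.0586), and in ethanol-fed mice without EtOH library 1 or 3 (0.0526 and 0.055) or EtOH4hLPS library 2 or 3 (0.0763 and 0.0756). It also missed with the depth covariate in pair-fed mice (-2.23, 0.0542) and without the expression filter in both diets (0.0528 and 0.0588).

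Esrrb, an estrogen-related receptor, fell by 0.91 and 0.93, and Twnk, the mitochondrial DNA helicase, fell by 0.85 in both diets. Ppargc1b, the coactivator PGC-1beta, fell by 1.04 in pair-fed mice (adjusted p = 0.0101, limma) and had a value of -0.33 in ethanol-fed mice (adjusted p = 0.407, limma), a difference between diets that did not pass the interaction test. Nfe2l2, a master regulator of antioxidant genes, rose by 1.06 and 1.09, Pprc1, the PGC-1-related coactivator, by 1.10 and 1.26, and Gabpb1, a subunit of the GABP transcription factor, by 0.57 and 0.76. The call of Gabpb1 in pair-fed mice passed in 10 of 27 alternatives, and was lost under equal totals (0.13) and on leaving out any PF library, PF4hLPS library 2 or 3, EtOH library 3 or EtOH4hLPS library 3 (adjusted p 0.0513 to 0.123). In ethanol-fed mice it was lost at equal total FPKM (0.47, adjusted p = 0.159, limma) and equal protein-coding FPKM (0.43, 0.103). That of Pprc1 in pair-fed mice was lost without PF library 2 or 3 or PF4hLPS library 1 (0.0558 to 0.0851), at equal total FPKM (0.68, 0.159), equal protein-coding FPKM (0.81, 0.0723), without the filter (0.0664) and with the depth covariate (1.54, 0.102). In ethanol-fed mice it was lost without EtOH library 2 (0.0506) and at equal total FPKM (0.99, 0.0678). The call of Nfe2l2 in pair-fed mice was lost at equal total FPKM (0.57, adjusted p = 0.05, limma) and with the depth covariate (0.73, 0.186). The depth covariate also ended the calls of Esrrb (-0.91, 0.108) and Twnk (-0.52, 0.301) in pair-fed mice. With PF4hLPS library 1 alone in its group, Ppargc1a, Esrrb, Twnk, Pprc1 and Gabpb1 were not called in pair-fed mice (adjusted p 0.0827 to 0.437, limma). After removal of the GC trend Ppargc1b had a value of -0.76 (adjusted p = 0.195, limma) and Esrrb one of -0.68 (adjusted p = 0.0662, limma) in pair-fed mice. Gabpb1, likewise in pair-fed mice, was then at 0.41 and no longer called (adjusted p = 0.12, limma). The GABP partner Gabpa, Nrf1, Esrra and Tfam, the packaging factor of mitochondrial DNA, were not called in either diet. Esrra had values of -0.92 and -0.69 with standard errors of 0.47.

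Of the fellow energy genes, 0 of 18 ATP synthase genes were called in either LPS comparison (medians 0.12 and 0.32), and 0 of 4 complex II genes were (medians -0.07 and 0.13). In the TCA cycle 1 of 14 genes was called. That gene, fumarase (Fh1), was at 261.6, 217.5 and 231.5 FPKM in PF and at 389.6, 537.9 and 584.0 FPKM in PF4hLPS, and rose by 1.07 (adjusted p = 0.00294, limma). In ethanol-fed mice it rose by 0.82 (adjusted p = 0.0143, limma), from 207.6, 197.0 and 240.0 FPKM to 366.1, 340.4 and 440.1 FPKM. The groups did not overlap in either diet. In ethanol-fed mice the adjusted p missed the threshold without EtOH library 1 or 2 or EtOH4hLPS library 3 (0.055 to 0.0652), at equal total FPKM (0.49, 0.0795), equal protein-coding FPKM (0.45, 0.0701) and under quantile normalization (0.39, 0.137). In pair-fed mice it missed with the depth covariate (1.02, 0.129) and with PF4hLPS library 1 alone in its group (0.72, 0.0925).

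The assembly factors were also mostly without a call. Of 19 tested complex IV assembly factors, 1 was called, Cox18, a membrane insertase for the mitochondrially encoded subunit 2, with fold changes of 0.87 (adjusted p = 0.00504, limma) and 0.57 (adjusted p = 0.0479, limma). The second of these calls was lost in 23 of 27 alternatives, and EtOH library 3 and PF4hLPS library 2 were the 2 libraries it did not depend on. The first was lost at equal total FPKM (0.44, adjusted p = 0.116, limma), with the depth covariate (0.92, 0.126) and with PF4hLPS library 1 alone (0.76, 0.111). Of 16 complex I assembly factors, Tmem126b fell by 0.56 in ethanol-fed mice (adjusted p = 0.0358, limma) and had a value of -0.21 in pair-fed mice (adjusted p = 0.429, limma). That call was lost without any EtOH library, EtOH4hLPS library 2 or 3 or PF library 2 or 3 (adjusted p 0.0561 to 0.137), and without the filter (0.0963). None of 6 complex III assembly factors passed. Of 57 mitochondrial ribosomal protein genes, 1 rose in pair-fed mice, Mrps18c, by 0.97 (adjusted p = 0.018, limma), and 0 were called in ethanol-fed mice. The call of Mrps18c was lost without PF library 2 or PF4hLPS library 2 or 3 (0.054 to 0.0739), at equal total FPKM (0.47, adjusted p = 0.1, limma), equal protein-coding FPKM (0.62, 0.0537), under quantile normalization (0.57, 0.0945), without the filter (0.0548), with the depth covariate (0.66, 0.401) and with PF4hLPS library 1 alone (0.46, 0.418). No gene of these lists passed the interaction test.

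**Figure D5:**
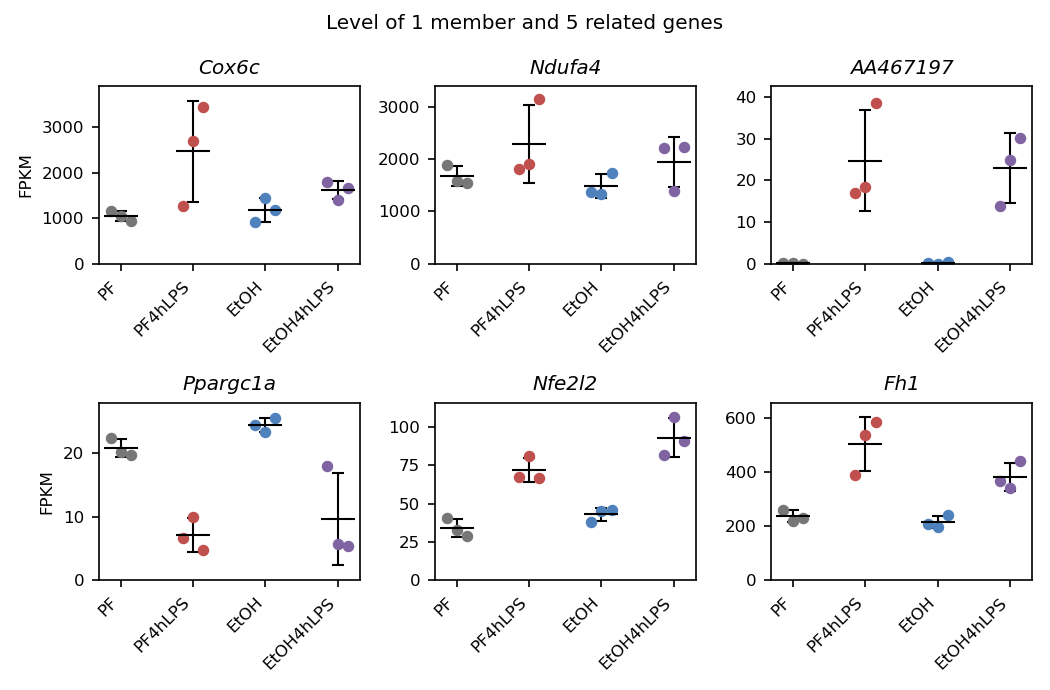
FPKM (y axis) of 1 member (Cox6c) and 5 related genes in the 4 groups (x axis). Points are libraries 1 to 3 from left to right, bars the mean ± SD of 3 libraries. AA467197, Nfe2l2 and Fh1 are higher and Ppargc1a lower in all LPS libraries than in the saline libraries of the same diet, while the Ndufa4 libraries overlap.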

How the data were processed

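The authors deposited 1 table of FPKM values for 12 libraries. The submitters' processing notes list Cuffnorm, Cuffdiff 2.1.1, Cufflinks 2.2.1, TopHat2 2.0.4 and FastQC 0.10.1, and the build mm10. The sources used here give no annotation release, strand setting or fragment totals, so counting error is unknown. Per the labels' protocols, libraries were stranded total RNA after removal of ribosomal RNA. Symbols, GC content and transcript length came from GENCODE M21 (47305 of 47719 identifiers matched). Groups were taken from the sample titles.

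Values were analysed as log2(FPKM + 1), which understates changes of low genes. The filter kept genes that reached 1 FPKM in 3 libraries or more. limma 3.58.1 (R 4.3.3) fitted 1 mean per group to all 12 libraries with trended, robust variances, two-sided. p-values were adjusted by Benjamini-Hochberg over the 14109 genes tested, with a threshold of 0.05. The same fit gives every adjusted p. An exact permutation test of 3 against 3 libraries cannot go below 0.1, so none is given. The scripts were tested on simulated data.

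The members and all gene lists were chosen with earlier results of these data known. Named in each comparison were members past the threshold and the 3 highest and 3 lowest, with the 3 highest and the lowest in level of each complex, members whose groups did not overlap in both comparisons of a pair, and list genes past the threshold; other genes named were chosen after their values were seen. GC trends were removed by a lowess per library. Alternatives covered the pseudocount, filters, scaling, GC, length, depth, the replicate block, the variance model and leaving out libraries.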

Additional observations from a re-analysis of the deposited data

How the results depend on the processing

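Each replicate number occurs once in every group, so a replicate block cannot change a fold change and can alter only the calls. The members' medians in the pair-fed and ethanol-fed LPS comparisons were thus fixed at 0.16 and 0.205, and at 0.241 and 0.219 with GC correction. The block called 1 and 0 members, where 2283 and 2184 of all 14109 genes were called. With the GC correction as well it called 1 and 0 members, where 2908 and 2902 of all genes were called. Of 18 same-numbered pairs of libraries, 5 had a correlation of deviations above 0.1 (range -0.206 to 0.279), so the numbers were not used as pairs. The block ended the calls of Gabpb1 in pair-fed mice (adjusted p = 0.0651, limma) and of Cox18 and Tmem126b in ethanol-fed mice (0.0721 and 0.0586).

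For PF4hLPS against PF, the count of members called higher was 2 with GC and transcript length corrected together, and 0 with PF4hLPS library 1 alone in its group, both chosen after seeing the data. It was 0 under equal total FPKM, equal protein-coding FPKM, no filter, quantile normalization and the depth covariate, and 0 to 4 when a library was left out. Of all 14109 genes, 3140 were called with GC and length corrected together, 3423 at equal total FPKM and 3361 at equal protein-coding FPKM. Quantile normalization called 2552, the depth covariate 1025, and fits without single libraries 1612 to 2751. Without the filter, where more genes were tested, 2009 were called. The members' median was -0.338, -0.188 and -0.251 under equal total, equal protein-coding total and quantile normalization, 0.942 with the depth covariate, and -0.135 to 0.434 on leaving out a library. For EtOH4hLPS against EtOH, the count of members was 1 with GC correction, 1 with GC and length together, 3 with the depth covariate and 0 to 1 without single libraries. Of all 14109 genes, these settings called 3005, 3172, 2595 and 1702 to 2647 in the same order. The member called with GC correction, alone or with length, was Uqcrc1. Those called with the depth covariate were Ndufa9, Uqcrc1 and Uqcrq. Ndufs4 was called in this comparison without PF4hLPS library 3 (0.501, adjusted p = 0.0391, limma). The members' median was -0.131, -0.167 and -0.234 under the same 3 scalings, and 0.0856 to 0.354 without single libraries. The other medians without single libraries ran from -0.176 to -0.037 (EtOH against PF), -0.377 to 0.271 (EtOH4hLPS against PF4hLPS), -0.205 to 0.0971 (both ethanol groups) and -0.257 to 0.39 (interaction), and the depth covariate gave an interaction median of -0.466. Transcript length correction gave members' medians of 0.14 and 0.168 in the pair-fed and ethanol-fed LPS comparisons. It gave -0.0309 in EtOH against PF and -0.00621 in EtOH4hLPS against PF4hLPS. The cause of these shifts was not tested.

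The named members that changed sign were not called in the comparison concerned. With the depth covariate the values were, for PF4hLPS against PF, 1.3 (Cyc1), 1.17 (Ndufa8) and 1.73 (Ndufa2); for EtOH4hLPS against EtOH, 0.354 (Ndufb7) and 0.388 (Ndufa8); for EtOH against PF, 0.268 (Cox6a1) and 0.267 (Cox8a); for Ndufa2 in EtOH4hLPS against PF4hLPS, -0.00346; and for the interaction, -0.743 (Ndufa2) and -0.0413 (Uqcrq). Quantile normalization gave -0.0375 (Uqcrh) and -0.00245 (Ndufa5) in EtOH4hLPS against EtOH. With PF4hLPS library 1 alone, Ndufb4 was at -0.063 against PF, 0.125 in EtOH4hLPS against PF4hLPS, 0.0372 in the pooled ethanol comparison and 0.176 in the interaction. On the same setting Cox6c was at 0.354 in EtOH4hLPS against PF4hLPS and 0.189 in the interaction, Ndufa2 at 0.0342 against PF and -0.0179 in EtOH4hLPS against PF4hLPS, and Ndufs5 at 0.0361 in the interaction.

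Without single libraries, PF4hLPS against PF ran from -0.973 to 0.124 for Cyc1, -0.958 to 0.12 for Ndufa8 and -0.929 to 0.25 for Ndufa2. EtOH4hLPS against EtOH ran from -0.472 to 0.091 for Ndufs7, -0.679 to 0.363 for Ndufb7 and -0.484 to 0.152 for Ndufa8. EtOH against PF ran from -0.0201 to 0.504 for Ndufa13 and -0.131 to 0.686 for Ndufb7. The pooled ethanol comparison ran from -0.0852 to 0.496 for Ndufa13 and -0.0688 to 0.565 for Ndufb7. Ndufa2 ran from -0.234 to 0.945 in EtOH4hLPS against PF4hLPS and from -0.0792 to 1.1 in the interaction. Across 57 gene and comparison pairs, 1381 of 1534 values kept direction and side of the threshold, 114 lost the call, 4 gained one and 35 changed sign. Many of the pairs were not called to begin with and had no call to lose. The 114 are therefore not a share of all 1534 values and do not measure how stable the calls were. With 3 libraries a group and no fragment totals, the precision is set by the spread between libraries.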

Other observations

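Cox8b, a complex IV isoform known from muscle and brown fat and not among the 52 members, was listed at 7.74 FPKM in PF library 2 and at 0 to 0.68 FPKM in the other 11 libraries. The same library held 4.08 FPKM of Ucp1, 4.62 of Adipoq and 2.74 of Cidea, brown fat and adipose markers that were at 0 to 0.87 FPKM in the other libraries. These genes were below the expression filter and entered no test.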
